A study of Mus musculus with 12 samples.

Results

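Collagens are the structural proteins of the extracellular matrix, and in the heart they bind myocytes, vessels and valves into one mechanical unit. Each collagen molecule is a trimer of chains wound into a helix, secreted as procollagen, trimmed outside the cell and crosslinked into fibrils, networks or beaded filaments. In the heart, cardiac fibroblasts make most fibrillar collagen, while endothelial cells, pericytes and myocytes contribute to the basement membranes around capillaries and muscle cells. Overgrowth of the fibrillar types is the hallmark of cardiac fibrosis.

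The collagen genes described here are the protein-coding genes of the count table whose mouse symbol has the form Col, a type number, the letter a and a chain number. Among the 55401 gene rows of the table, 44 were collagens. A filter on low counts kept 34 of them among the 16213 genes tested.

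The data were RNA sequencing counts from bulk heart tissue of wild-type C57BL/6J mice, with 12 libraries in 4 groups of 3. Female exercised and male exercised mice were trained for 6 weeks on a treadmill set to 1 km/h, in bouts of 45 min on 5 days of each week, and their hearts were taken at the end. Female sedentary and male sedentary mice were matched to them in age and stayed in their cages for the same period. Libraries are numbered within each group in accession order, and the numbers pair nothing across groups. The labels do not say whether each library came from a separate animal, so the p-values measure the spread between these libraries, and in bulk tissue fewer cells of a type cannot be told apart from less RNA per cell.

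Total counts were between 22204349 and 32566240 per library, and between 22204349 and 26607844 without mitochondrial rows. Female sedentary library 2 had 27.3% of its counts on mitochondrial rows, and the other 11 libraries had none there. Levels are given as CPM, counts relative to the library total, here with totals adjusted by TMM. Cardiomyocyte markers were abundant in every library and summed to 54190 to 63160 CPM. Atrial markers such as Myl7 and Sln set 3 female libraries apart. Their sum was 303 CPM in female exercised library 2, 202 CPM in female sedentary library 1 and 76.9 CPM in female sedentary library 2. It was 3.37 to 23.8 CPM in the other 9, where the female libraries still lay above the male ones. Erythroid markers were also high in female sedentary libraries 1 and 2, at 3630 and 1747 CPM, against 8.26 to 293 CPM elsewhere. Results below are therefore also given for the 9 libraries with few atrial transcripts, in which the female sedentary group has 1 library.

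Type IV collagen, the network-forming collagen of basement membranes, made up the largest part of the collagen transcripts. On a per-length scale (CPM per kilobase of annotated exon, averaged over the 12 libraries), Col4a1 was at 55.4 and Col4a2 at 47.7, the highest levels of all collagens. Col6a1, a chain of the beaded type VI filaments that surround cells, followed at 28.3, and Col3a1, the chain of the thin type III fibrils, at 19.99. These 4 genes carried 61.9% of the summed per-length collagen level, and the 10 highest carried 88.9%.

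By class, the type IV chains held 44.9% of that per-length sum, the fibrillar chains 24.3%, the type VI chains 19.6% and the multiplexins of basement membrane zones 7.67%. The fibril-associated collagens, which decorate the surface of fibrils, held 1.91%, and the short-chain collagens of types VIII and X held 1.24%. Col15a1, a multiplexin, stood at 17.1 CPM per kilobase and the other multiplexin, Col18a1, at 1.65. The 2 chains of type I collagen, Col1a1 and Col1a2, stood at 12.6 and 10.8 CPM per kilobase, below type III and far below type IV. Their per-length ratio, Col1a1 over Col1a2, lay between 0.965 and 1.35 in the 12 libraries. The length used is that of all annotated exons of a gene merged, which can exceed the length of its transcripts. Ranks, shares and ratios between genes depend on it. In mean CPM, Col4a1 (414) and Col4a2 (316) were also highest. Col3a1 (196) and Col1a2 (135), however, then stood above Col6a1 (124), and Col1a1 was at 82.5.

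**Figure D1:**
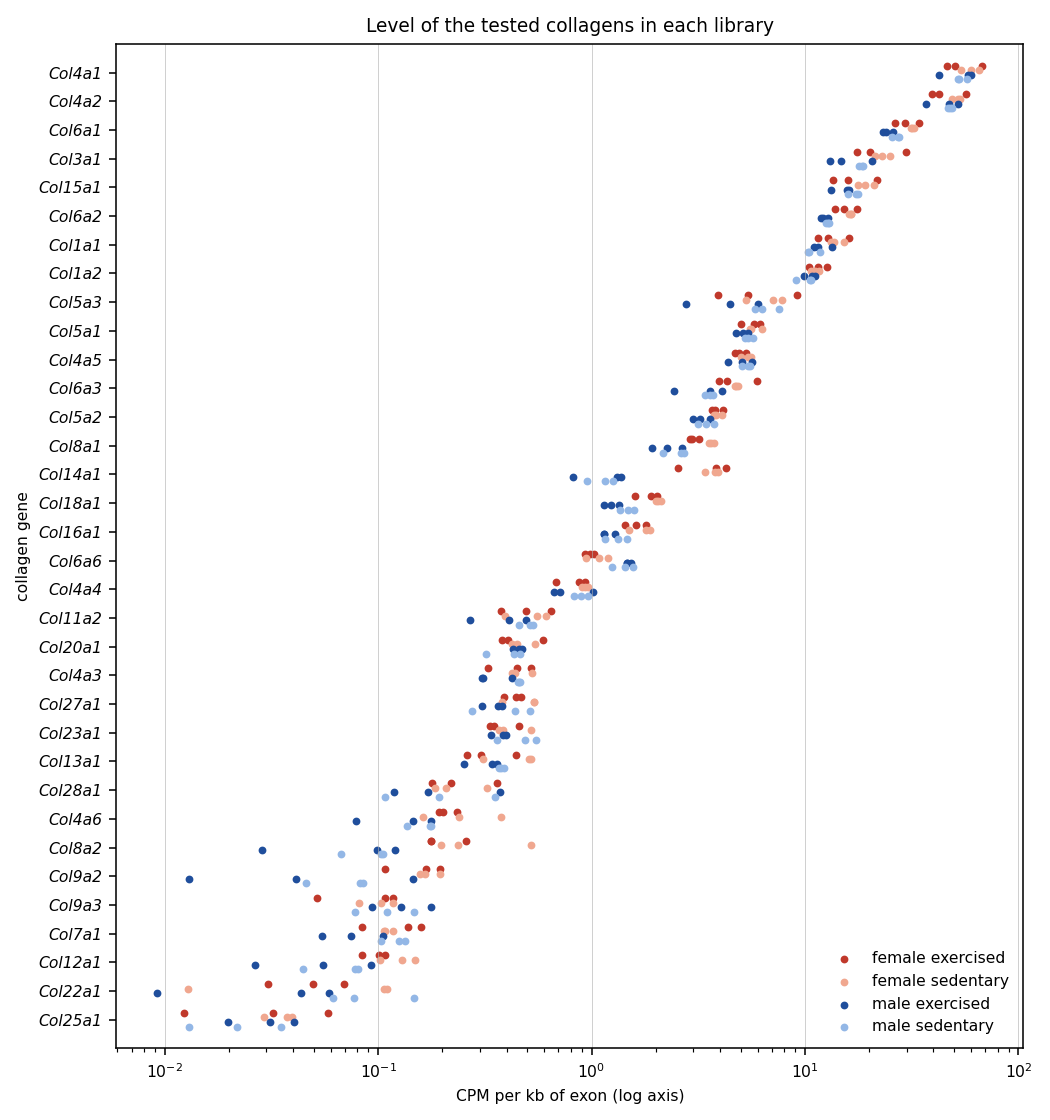
Level of each of the 34 tested collagens in each of the 12 libraries, in CPM per kilobase of exon on a log axis, ordered by mean; each point is 1 library, coloured by group. Col4a1 and Col4a2 lie at the top, and Col25a1 at the bottom; the male points of Col14a1 lie to the left of all its female points.

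Neighbours in the per-length order often overlapped. Col4a1 ranged over the libraries from 42.7 to 67.6 CPM per kilobase and Col4a2 from 37.1 to 56.9, so the ranges of the highest pair overlapped, although Col4a1 over Col4a2 was above 1 in every library (1.10 to 1.23). Col1a1 (10.3 to 16) and Col1a2 (9.04 to 12.6) overlapped too. Below the type I chains came Col5a3 (5.97) and Col5a1 (5.50), chains of the type V collagen that starts fibrils. The lowest library of Col1a2 lay just under the highest of Col5a3 (9.20) and above every library of Col5a1 (highest 6.31).

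The 10 collagens under the filter were nearly silent in these hearts. Col9a1 had no count in any library, Col6a4 had 2 counts in all, Col19a1 had 3 and Col10a1 had 5. Over all 12 libraries, Col24a1 summed to 13, Col2a1 to 17, Col17a1 to 20, Col11a1 to 27, Col6a5 to 38 and Col26a1 to 75 counts. Among them are the cartilage collagens Col2a1, Col9a1, Col10a1 and Col11a1, and Col17a1, the hemidesmosomal collagen of skin.

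The spread within groups differed between collagens. The within-group SD of log2 CPM was smallest for Col6a2 (0.09), Col6a1 (0.11) and Col5a2 (0.11). It was largest for 3 scarce genes, Col22a1 (0.95), Col28a1 (0.64) and Col9a2 (0.60). Among abundant collagens Col5a3 varied most (0.46): it was at 36.6, 26.6 and 62.7 CPM in the female exercised libraries and 48.3, 36.0 and 53.2 CPM in the female sedentary ones. In males it was at 18.8, 30.2 and 41.1 CPM in exercised hearts and 51.5, 39.9 and 42.9 CPM in sedentary hearts.

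Summed over the 34 tested collagens, the level was 1665, 1686 and 2256 CPM in female exercised hearts, against 1919, 1996 and 2074 CPM in female sedentary hearts. In males it was 1440, 1702 and 1772 CPM in exercised hearts, against 1703, 1753 and 1728 CPM in sedentary hearts. The exercised groups were the more scattered in both sexes. Female exercised library 3 held the highest value of the 12 libraries for 13 of the 34 tested collagens, and male exercised libraries 1 and 2 held the lowest for 13 and 10.

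The first comparison asked whether treadmill training changed collagen transcripts in either sex. No collagen was called: 0 of 34 passed edgeR's quasi-likelihood test at an adjusted p of 0.05 in females, in males, or averaged over the sexes. Across all 16213 genes the share called was also 0.0% in each of these 3 comparisons. DESeq2 and voom with sample weights called no collagen either. At an unadjusted p under 0.05 the test counted 1 collagen in females (2.94%, against 3.93% of all genes), 1 in males (2.94%, against 7.84%) and 2 in the average (6.28% of all genes).

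Most fitted differences lay slightly below 0. In females the median log2 difference, exercised minus sedentary, was -0.11 over the 34 collagens and 0.00 over all genes, and 31 collagens lay below 0 where 49.9% of all genes did. In males the median was -0.14, again against 0.00, and 26 collagens lay below 0 where 49.9% of all genes did. The median over the collagens, taken in each library, varied within groups with an SD of 0.0928. Single libraries moved these medians: without female exercised library 3 the female median was -0.23, and it was -0.0576 without female exercised library 2 and -0.0702 without female exercised library 1. In males the median was -0.0748 without male sedentary library 2, and with any other single library left out it lay between -0.18 and -0.092.

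Col8a1, a chain of the short-chain type VIII network found in vessel walls and remodelling hearts, had the smallest p in females. It was at 23.1, 22.7 and 25 CPM in female exercised hearts, against 29.4, 28.3 and 27.8 CPM in female sedentary hearts. The female groups did not overlap. The log2 difference was -0.27 ± 0.11 (standard error, SE; 12 libraries in the fit), with an unadjusted p of 0.0284 and an adjusted p of 1.00. In males Col8a1 was at 17.6, 15.1 and 20.8 CPM in exercised hearts, against 17.0, 21.1 and 20.6 CPM in sedentary hearts, and these groups overlapped (-0.13 ± 0.11). Col8a1 was the only collagen of 34 whose female groups did not overlap (9.79% of all genes did not).

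Col18a1, the multiplexin whose C-terminal fragment is endostatin, had the smallest p in males. It was at 8.0, 8.64 and 9.41 CPM in male exercised hearts, against 9.54, 10.4 and 11.1 CPM in male sedentary hearts. All exercised values were below all sedentary ones, and the log2 difference was -0.25 ± 0.11 (unadjusted p 0.0434, adjusted p 0.631). In females it was at 11.2, 13.4 and 14.2 CPM in exercised hearts, against 14.8, 14.3 and 14.1 CPM in sedentary hearts (-0.16 ± 0.11), and the groups overlapped by a small margin.

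In males 4 of 34 collagens had groups that did not overlap, all with the exercised values lower (12.3% of all genes did not overlap, and 6.16% with the exercised values lower). Besides Col18a1 these were Col4a3, Col22a1 and Col13a1. Col4a3, a type IV chain best known from the kidney's filtration barrier, was at 3.10, 3.06 and 4.22 CPM in exercised males, against 4.49, 4.61 and 4.58 CPM in sedentary males (-0.40 ± 0.19, unadjusted p 0.0568). An opposite-strand transcript, C430014B12Rik, overlaps 5.65% of the exon length of Col4a3, and whether the counting used strand is not given in the sources used here. Col22a1, a collagen of tissue junctions, was at 0.402, 0.540 and 0.0852 CPM in exercised males, against 0.566, 1.35 and 0.709 CPM in sedentary males (-1.35 ± 0.69, unadjusted p 0.0725). Its female sedentary values alone spanned 0.118 to 1.02 CPM.

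Col13a1, a transmembrane collagen, was at 1.17, 1.67 and 1.58 CPM in exercised males, against 1.74, 1.69 and 1.79 CPM in sedentary males. In females Col13a1 was at 2.04, 1.20 and 1.39 CPM in exercised hearts, against 1.43, 2.36 and 2.39 CPM in sedentary hearts (-0.41 ± 0.27). Col7a1, the collagen of anchoring fibrils, was at 0.563, 1.08 and 0.767 CPM in exercised males, against 1.28, 1.06 and 1.37 CPM in sedentary males (-0.63 ± 0.32). These groups overlapped for Col7a1, which in females had a difference of the other sign (0.20 ± 0.30).

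The fibrillar collagens known for their part in fibrosis had exercised and sedentary values that overlapped. Col1a1 was at 75.5, 84.4 and 105 CPM in female exercised hearts, against 89.7, 100 and 87.0 CPM in female sedentary hearts. In males Col1a1 was at 72.4, 87.8 and 75.3 CPM in exercised hearts, against 68.2, 77.5 and 67.9 CPM in sedentary hearts. The groups overlapped in both sexes, with log2 differences of -0.06 ± 0.11 in females and 0.14 ± 0.11 in males.

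Col1a2 was at 129, 143 and 157 CPM in female exercised hearts, against 132, 144 and 139 CPM in female sedentary hearts. In males it was at 138, 124 and 134 CPM in exercised hearts, against 112, 131 and 133 CPM in sedentary hearts. The log2 differences of Col1a2 were 0.05 ± 0.09 in females and 0.07 ± 0.09 in males. Col3a1 followed neither direction clearly, with values widely spread among the exercised libraries. It was at 172, 198 and 291 CPM in female exercised hearts, against 224, 208 and 245 CPM in female sedentary hearts (-0.03 ± 0.20). In males Col3a1 was at 144, 128 and 203 CPM in exercised hearts, against 184, 175 and 182 CPM in sedentary hearts (-0.19 ± 0.20).

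Col5a1 and Col5a2, chains of type V collagen, were among the steadier genes. Col5a1 was at 42.6, 49.1 and 52.4 CPM in female exercised hearts, against 46.8, 53.6 and 47.3 CPM in female sedentary hearts. In males Col5a1 was at 43.4, 40.4 and 45.8 CPM in exercised hearts, against 48.6, 45.9 and 44.4 CPM in sedentary hearts. Its log2 differences were -0.03 ± 0.09 in females and -0.10 ± 0.09 in males. Col5a2 was at 35.2, 36.2 and 39.6 CPM in female exercised hearts, against 39.0, 36.9 and 35.8 CPM in female sedentary hearts (-0.01 ± 0.09). In males it was at 28.7, 30.9 and 34.4 CPM in exercised hearts, against 30.3, 36.1 and 32.9 CPM in sedentary hearts (-0.08 ± 0.09). Col11a2, a chain best known from cartilage, was at 4.46, 3.40 and 2.60 CPM in female exercised hearts, against 4.22, 2.71 and 3.80 CPM in female sedentary hearts (-0.04 ± 0.25). In males it was at 1.85, 3.38 and 2.81 CPM in exercised hearts, against 3.66, 3.13 and 3.54 CPM in sedentary hearts (-0.37 ± 0.25), and both comparisons overlapped.

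The basement membrane collagens all had fitted differences below 0 in both sexes, with 0 of 6 past the test in either. Col4a1 was at 375, 344 and 504 CPM in female exercised hearts, against 403, 445 and 486 CPM in female sedentary hearts. In males it was at 318, 446 and 431 CPM in exercised hearts, against 391, 427 and 394 CPM in sedentary hearts. Both comparisons overlapped, with log2 differences for Col4a1 of -0.13 ± 0.15 in females and -0.02 ± 0.15 in males. Without male exercised library 1 the male difference of Col4a1 was 0.12, of the other sign. Col15a1 was at 86.2, 100.5 and 139 CPM in female exercised hearts, against 112, 122 and 134 CPM in female sedentary hearts (-0.18 ± 0.15). In males Col15a1 was at 84.1, 100.4 and 102 CPM in exercised hearts, against 113, 102 and 109.8 CPM in sedentary hearts (-0.18 ± 0.15).

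Col4a2, the partner chain of Col4a1 in the trimer, was at 281, 261 and 376 CPM in female exercised hearts, against 322, 346 and 353 CPM in female sedentary hearts (-0.15 ± 0.13). In males Col4a2 was at 246, 344 and 312 CPM in exercised hearts, against 309, 324 and 317 CPM in sedentary hearts (-0.08 ± 0.13). Of the type VI chains, Col6a1 differed by -0.09 ± 0.08 in females and -0.13 ± 0.08 in males, and Col6a2 by -0.08 ± 0.08 in females and -0.05 ± 0.08 in males, from library values given with the sex comparison.

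**Figure D2:**
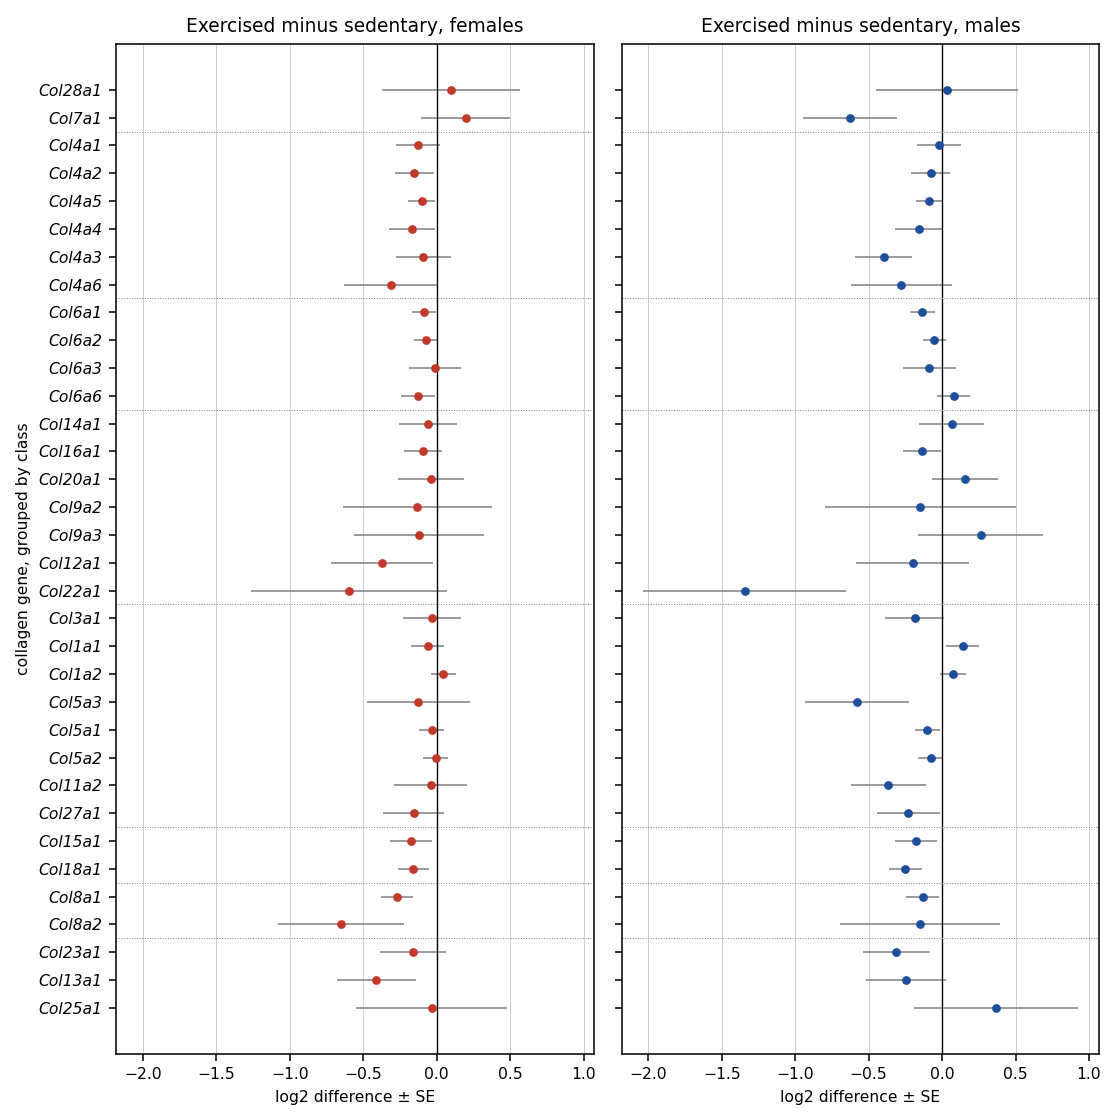
Log2 difference, exercised minus sedentary, of each of the 34 tested collagens in females (left) and males (right), with bars of 1 SE from the fit over 12 libraries; dotted lines part the collagen classes. In females 31 points lie below 0 and in males 26; the bars of 23 points in females and 19 in males reach 0, and no collagen passed the test in either sex.

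The difference between the sexes in the response to training was tested directly as an interaction. No collagen passed (0 of 34, against 0.0% of all genes, by edgeR's quasi-likelihood test), none had an unadjusted p under 0.05 (4.74% of all genes did), and DESeq2 and voom also called none. The median interaction, the female response minus the male response, was 0.00 on the log2 scale, with 17 collagens above 0 (49.4% of all genes were). Col7a1 had the smallest p (0.82 ± 0.44, unadjusted p 0.0826, adjusted p 0.931). The next by p were Col6a6 (-0.20 ± 0.16), Col1a1 (-0.20 ± 0.16), Col4a3 (0.31 ± 0.27) and Col11a2 (0.33 ± 0.36), none past the test.

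Among 64 tested genes that make, handle or regulate collagen, edgeR's quasi-likelihood test, DESeq2 and voom called 0 for exercise in either sex. The unadjusted p was under 0.05 for 1 of them in females (3.93% of all genes) and 2 in males (7.84% of all genes). Of 19 tested genes for collagen folding and modification, 6 were above 0 in females and 11 in males (50.1% of all genes in each sex), with medians of -0.02 and 0.02. In procollagen processing and crosslinking, 9 of 13 were above 0 in each sex, and the smallest p-values belonged to Pcolce, the enhancer of procollagen C-proteinase, in females (0.13 ± 0.08) and Loxl2, a lysyl oxidase-like crosslinking enzyme, in males (-0.27 ± 0.14). Of 9 tested collagen receptors and uptake genes, Lair1, an inhibitory collagen receptor of leukocytes, had the smallest p in both sexes: 0.45 ± 0.26 in females and 0.73 ± 0.26 in males, where its unadjusted p was 0.0146. In collagen breakdown, 5 of 10 were above 0 in females and 6 of 10 in males, led by the collagen-cleaving proteases Mmp14 in females (-0.28 ± 0.17) and Mmp13 in males (1.14 ± 0.54). Of 13 TGF-beta signalling genes, Ltbp2 in females (-0.92 ± 0.38) and Tgfb1 in males (0.33 ± 0.15) had the smallest p-values, and neither passed the adjusted threshold.

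Cell type markers were also without a call for exercise. Of 8 cardiac fibroblast markers, 7 lay above 0 in females and 3 in males, where 50.1% of all genes did in each sex. Macrophage markers lay above 0 for 7 of 7 in females and 6 of 7 in males, with median log2 differences of 0.24 and 0.27. Endothelial markers were above 0 for 1 of 7 in females and 7 of 7 in males (medians -0.05 and 0.14), and cardiomyocyte markers for 6 of 6 in females and 1 of 6 in males (0.07 and -0.05). Valve and cartilage markers were above 0 for 1 of 6 in females (median -0.92), the female sedentary libraries with atrial transcripts being the highest, and for 3 of 6 in males (-0.09). Adipocyte markers were above 0 for 4 of 5 in both sexes (1.81 and 0.50). Postn, a matrix protein of activated fibroblasts, was at 35.0, 36.1 and 36.2 CPM in female exercised hearts, against 53.5, 48.7 and 43.4 CPM in female sedentary hearts, without overlap (-0.44 ± 0.12, unadjusted p 0.0033, adjusted p 1.00). Acta2, the smooth muscle actin of activated fibroblasts and vessel walls, ran the other way in females, at 164, 97.3 and 117 CPM in exercised hearts, against 95.4, 52.2 and 87.5 CPM in sedentary hearts, also without overlap (0.69 ± 0.25, unadjusted p 0.0193, adjusted p 1.00). In males Acta2 was at 50.9, 38.3 and 46.2 CPM in exercised hearts, against 64.2, 78.6 and 67.5 CPM in sedentary hearts, lower without overlap (-0.63 ± 0.25, unadjusted p 0.0299, adjusted p 0.627). Its interaction was 1.32 ± 0.35 (unadjusted p 0.00386, adjusted p 0.931 by edgeR), and DESeq2 called it. Summed erythroid markers were at 17.8, 293 and 36.4 CPM in female exercised hearts, against 3630, 1747 and 34.6 CPM in female sedentary hearts, so they moved with this comparison through 2 libraries. Their part in the collagen values was not tested.

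The second comparison set female against male hearts. Here 8 of 34 collagens passed the test when the difference was averaged over exercised and sedentary hearts, where 5.05% of all genes did: 7 were higher in females (2.16% of all genes were called higher) and 1 was lower (2.89%). The median log2 difference, female minus male, was 0.24 over the collagens and 0.01 over all genes, and 30 of 34 collagens lay above 0 where 52.8% of all genes did. By edgeR's quasi-likelihood test, Col14a1, Col18a1, Col6a2, Col8a1, Col6a1, Col16a1 and Col8a2 were higher in females, and Col6a6 was lower.

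Col14a1 (chr15:55307750-55520803, plus strand; build GRCm38 for this and the coordinates that follow), a fibril-associated collagen that binds the surface of type I fibrils, differed most. It was at 17.9, 27.0 and 29.9 CPM in female exercised hearts and 26.5, 27.6 and 23.8 CPM in female sedentary hearts, against 9.69, 5.76 and 9.20 CPM in male exercised hearts and 8.07, 8.80 and 6.71 CPM in male sedentary hearts. Every female library was above every male library by a wide gap. The log2 difference was 1.66 ± 0.15, a 3.16-fold higher level in females, with an adjusted p of 0.00014. It was past the test separately in exercised hearts (1.60 ± 0.21, adjusted p 0.00772) and in sedentary hearts (1.72 ± 0.21, adjusted p 0.00256), and it was the only collagen called in exercised hearts, where 0.16% of all genes were called.

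Type VI collagen chains differed in both directions between the sexes. Col6a2 (chr10:76595762-76623630, minus strand), one of the core chains, was at 115, 126 and 145 CPM in female exercised hearts and 133, 137 and 137 CPM in female sedentary hearts, against 99.0, 107 and 101 CPM in male exercised hearts and 104, 108 and 106 CPM in male sedentary hearts. The lowest female library lay above the highest male library, with a log2 difference of 0.34 ± 0.05 (1.27-fold, adjusted p 0.00362).

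Col6a1 (chr10:76708792-76726168, minus strand), which lies beside Col6a2, was at 129, 116 and 149.6 CPM in female exercised hearts and 138, 142 and 139 CPM in female sedentary hearts, against 105, 102 and 114 CPM in male exercised hearts and 120.3, 112 and 119 CPM in male sedentary hearts. Only female exercised library 2 fell within the male range. The log2 difference of Col6a1 was 0.27 ± 0.06 (1.21-fold, adjusted p 0.0182).

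Col6a6 (chr9:105687809-105828160, minus strand), a longer chain related to Col6a3 that can take its place in the trimer, ran the other way. It was at 8.58, 9.44 and 9.04 CPM in female exercised hearts and 8.63, 9.98 and 11 CPM in female sedentary hearts, against 13.5, 13.5 and 14.1 CPM in male exercised hearts and 13.1, 11.4 and 14.3 CPM in male sedentary hearts. All female values were below all male values, with a log2 difference of -0.50 ± 0.08 (adjusted p 0.00395). Col6a3 itself was at 0.46 ± 0.13 (adjusted p 0.0663), so the per-length ratio of Col6a6 over Col6a3 was 0.166 to 0.255 in female libraries and 0.36 to 0.608 in male libraries, without overlap.

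Both multiplexins and both type VIII chains had differences above 0. Col18a1 (chr10:77052178-77166548, minus strand), with the values given above, was at 11.2 to 14.8 CPM in female libraries and 8.0 to 11.1 CPM in male libraries, which did not overlap (0.53 ± 0.08, 1.44-fold, adjusted p 0.00271). Col15a1 did not pass (0.18 ± 0.10). Col8a1 (chr16:57624258-57754737, minus strand) was at 22.7 to 29.4 CPM in females and 15.1 to 21.1 CPM in males, again without overlap (0.47 ± 0.08, 1.39-fold, adjusted p 0.00508).

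The partner chain Col8a2 (chr4:126286793-126314330, plus strand) was scarce. It was at 0.791, 1.16 and 0.791 CPM in female exercised hearts and 2.34, 1.06 and 0.884 CPM in female sedentary hearts, against 0.442, 0.540 and 0.128 CPM in male exercised hearts and 0.302, 0.465 and 0.472 CPM in male sedentary hearts. The female values were all higher, and the highest by far was female sedentary library 1, one of the libraries with atrial transcripts. The log2 difference was 1.55 ± 0.34 (adjusted p 0.0201), 1.27 without that library (adjusted p 0.0529) and 1.45 without male sedentary library 1 (adjusted p 0.0544).

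Col16a1 (chr4:130047840-130099283, plus strand), another fibril-associated collagen, was at 9.70, 11 and 12.1 CPM in female exercised hearts and 12.1, 12.7 and 10.1 CPM in female sedentary hearts, against 7.76, 7.74 and 8.73 CPM in male exercised hearts and 8.94, 9.85 and 7.84 CPM in male sedentary hearts. The ranges touched, since 1 female value fell just under the highest male value. The log2 difference of Col16a1 was 0.41 ± 0.09 (1.33-fold, adjusted p 0.0194), and the adjusted p was 0.0517 without female sedentary library 1 and also 0.0517 without male sedentary library 3.

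**Figure D3:**
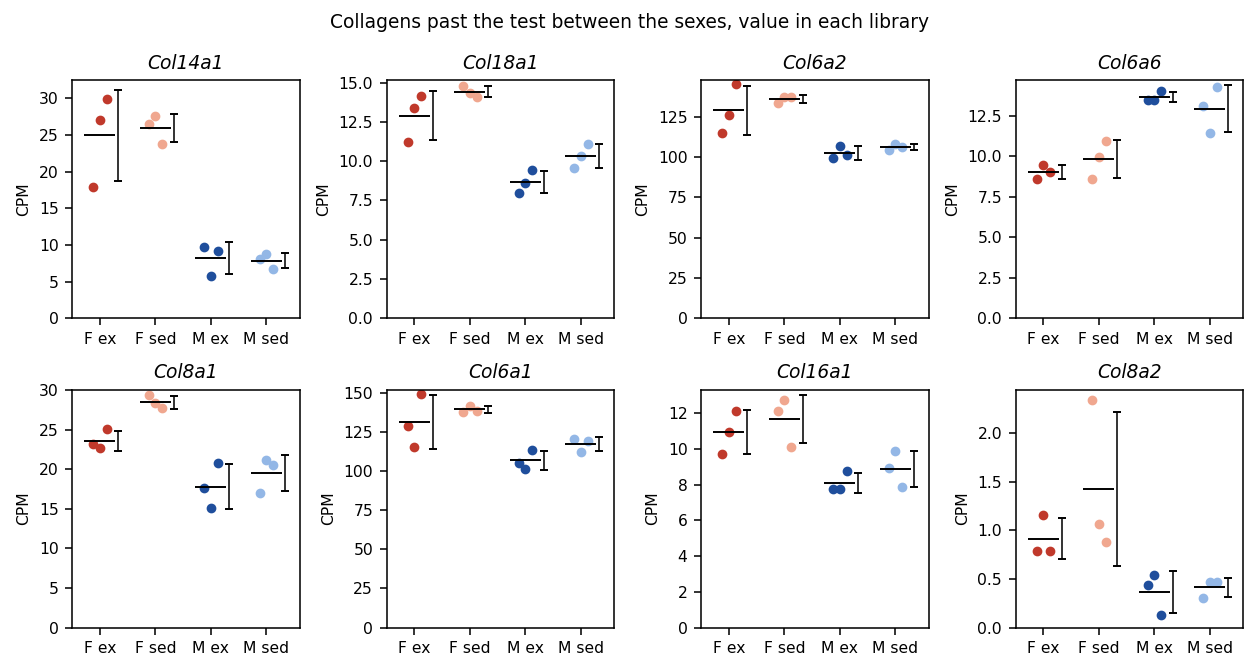
CPM in each library of the 8 collagens past the test between the sexes, in female exercised, female sedentary, male exercised and male sedentary hearts; each point is 1 library, the horizontal line is the group mean and the bar beside it is 1 SD (n = 3 per group). Female points lie above all male points for Col14a1, Col18a1, Col6a2, Col8a1 and Col8a2, and below them for Col6a6; for Col6a1 and Col16a1 the ranges overlap.

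Over the 6 female and 6 male libraries, 6 of 34 collagens had ranges that did not overlap, where 3.45% of all genes did: Col14a1, Col18a1, Col6a2, Col8a1 and Col8a2 with females above, and Col6a6 with females below. In sedentary hearts alone 4 collagens were called, where 2.21% of all genes were: Col14a1, Col8a1 (0.54 ± 0.11), Col6a2 (0.36 ± 0.08) and Col18a1 (0.48 ± 0.11). That count fell without any one sedentary library. It was 2 without male sedentary library 2, and 1 without any other sedentary library. The count over all genes fell as well, from 358 to between 68 and 236 in these fits. In exercised hearts the collagen count was 2 without female exercised library 1, the added one being Col18a1. That fit called 23 genes there, against 26 with all libraries.

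Col6a3 (adjusted p 0.0663), Col1a1 (0.0667) and Col5a2 (0.0669) stood closest to the threshold among collagens not called by edgeR's quasi-likelihood test. Col12a1 (0.83 ± 0.26, adjusted p 0.0804) and Col9a2 (1.25 ± 0.41, adjusted p 0.0926), fibril-associated collagens at under 2.3 CPM in every library, had larger differences with larger errors. DESeq2 and voom both called Col6a3 and Col12a1, and voom also called Col9a2. Over all genes DESeq2 called 1378 of 33281 and voom 921 of 16213. All 8 tested fibrillar collagens had a fitted difference above 0 and 0 passed edgeR's test. Of these, 3 (Col1a1, Col3a1 and Col5a2) had an unadjusted p under 0.05 by that test, where 21.2% of all genes did. DESeq2 called these 3 and voom called 0. Col1a1 had 0.27 ± 0.08, Col3a1 0.40 ± 0.14, Col5a2 0.21 ± 0.06, Col1a2 0.13 ± 0.06 and Col5a1 0.12 ± 0.06.

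Type IV chains differed little between the sexes, though they are the most abundant. Col4a1 had a log2 difference of 0.09 ± 0.11 and Col4a2 of 0.07 ± 0.09, and both were slightly below 0 without female exercised library 3 (-0.0036 for Col4a1, -0.0199 for Col4a2). Col4a5, on the X chromosome, had -0.01 ± 0.06. Its X-linked neighbour Col4a6 had 0.66 ± 0.24 (adjusted p 0.124), with 1.87, 1.60 and 1.54 CPM in female exercised hearts and 3.01, 1.30 and 1.90 CPM in female sedentary hearts, against 1.17, 0.630 and 1.41 CPM in male exercised hearts and 1.09, 1.40 and 1.42 CPM in male sedentary hearts.

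**Figure D4:**
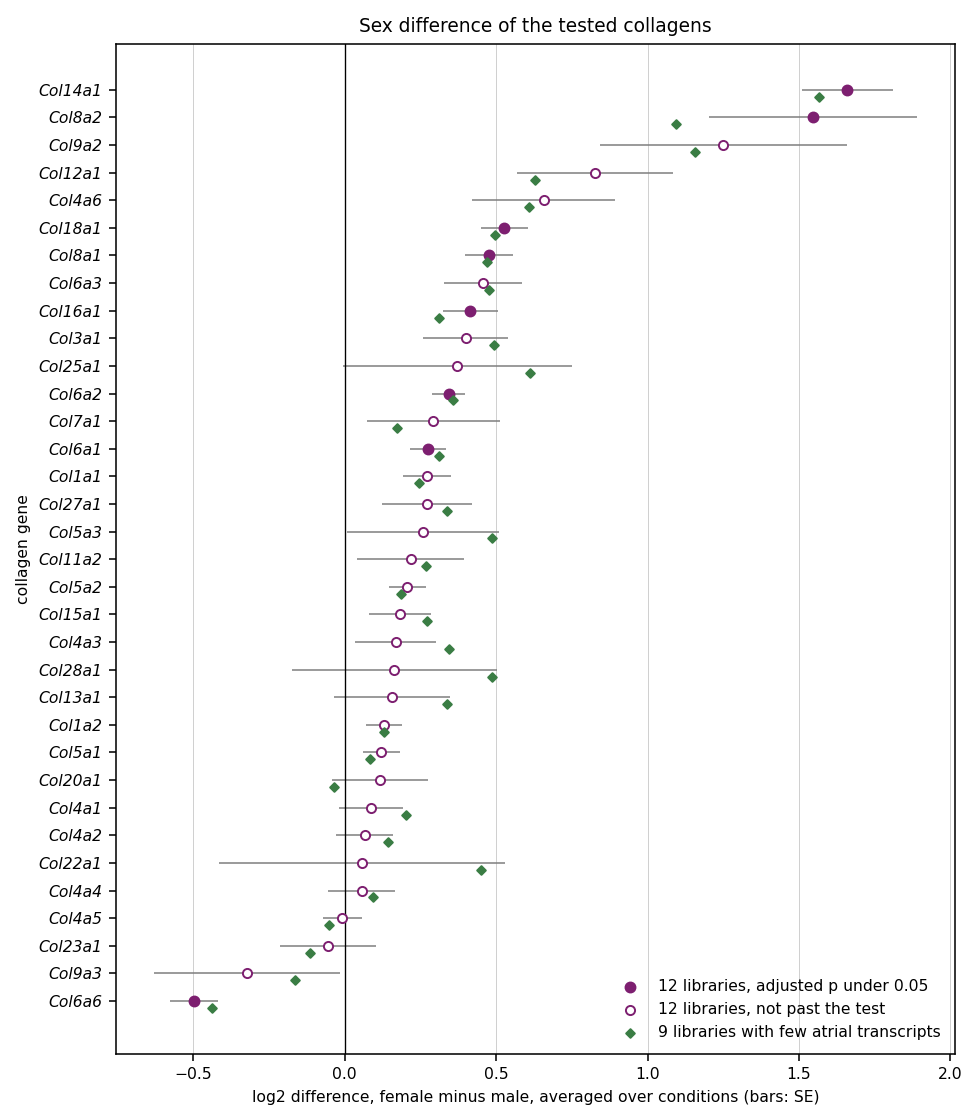
Log2 difference, female minus male, averaged over exercised and sedentary hearts, for the 34 tested collagens; circles with bars of 1 SE are from all 12 libraries (filled where the adjusted p was under 0.05) and diamonds from the 9 libraries with few atrial transcripts. Col14a1 lies farthest to the right in both fits and Col6a6 farthest to the left, and most points lie above 0.

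Among the 9 libraries with few atrial transcripts, with 3 female libraries left, Col14a1 alone was called (1.56 ± 0.20, adjusted p 0.0154, where 0.699% of 17018 genes were called). The other 7 kept their direction and fell outside the threshold. Their values were 0.50 for Col18a1 (adjusted p 0.0726), 0.36 for Col6a2 (0.061), 0.47 for Col8a1 (0.0748), 0.31 for Col6a1 (0.0741), -0.44 for Col6a6 (0.0767), 0.31 for Col16a1 (0.263) and 1.09 for Col8a2 (0.225).

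Markers of the cells that make collagen also differed between the sexes. The summed level of 8 cardiac fibroblast markers was 2366 to 2853 CPM in female libraries and 1838 to 2331 CPM in male libraries, which did not overlap. Gsn made up most of that sum, and the other 7 markers summed to 782 to 904 CPM in female libraries and 600.0 to 831 CPM in male libraries, which overlapped. Of the 8, 7 lay above 0 (52.8% of all genes did) and 3 passed the test (5.05% of all genes did): the fibril-binding proteoglycan Lum (0.87 ± 0.09), Dpt, which codes for dermatopontin (0.36 ± 0.08), and Gsn, which codes for gelsolin (0.31 ± 0.06). The proteoglycan gene Dcn (0.00 ± 0.07) and the receptor gene Pdgfra (0.05 ± 0.08) were near 0, and Scara5 was at -0.11 ± 0.09. Activated fibroblast markers summed to 160.0 to 249 CPM in females and 99.1 to 154 CPM in males, and 3 of 4 tested passed, namely Fn1 (0.47 ± 0.07), Postn (0.57 ± 0.09) and Acta2 (0.82 ± 0.18), while Cthrc1 was near 0 throughout. Over the 9 libraries with few atrial transcripts, Lum, Fn1 and Acta2 stayed past the test. The part of these markers in the collagen differences was not tested.

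Among the other cell type lists 4 genes were called. Of all genes, 21.2% had an unadjusted p under 0.05 in this comparison by edgeR's test. Of 7 endothelial markers 2 lay above 0, and of 7 smooth muscle and pericyte markers 4 did, with 0 called in both lists by edgeR (2 and 0 at an unadjusted p under 0.05; DESeq2 and voom each called the endothelial receptor Kdr). All 7 macrophage markers lay above 0 with 0 called by edgeR (4 at an unadjusted p under 0.05, 1 called by DESeq2 and 0 by voom). All 6 cardiomyocyte markers lay below 0 with 1 called, the calcium release channel Ryr2 (-0.31 ± 0.07). Valve and cartilage markers summed to 8.06 to 35.8 CPM in females and 8.73 to 13.7 CPM in males, highest in female sedentary library 1, with Fmod called higher (0.98 ± 0.25) and Cnmd called lower (-1.91 ± 0.27). Atrial markers summed to 7.004 to 302.7 CPM in females and 3.375 to 6.35 CPM in males, which did not overlap. All 4 tested atrial markers lay above 0 (median 5.156), and Dkk3 was called higher (3.07 ± 0.68). Over the 9 libraries with few atrial transcripts all 4 also lay above 0 (median 0.6756). Bmp10, also in the atrial list, was at 0.151 CPM or less in all libraries. All 5 adipocyte and all 5 erythroid markers lay above 0, with 0 called by edgeR and voom and 4 and 5 by DESeq2 (4 and 5 at an unadjusted p under 0.05 in edgeR). The part of these lists in the collagen differences was not tested either.

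Genes for proteins that trim and crosslink procollagen outside the cell were among the genes higher in females. In procollagen processing and crosslinking, 5 of 13 genes were called, all higher in females, where 2.16% of all genes were called higher. They were Pcolce (0.42 ± 0.06, adjusted p 0.00225), its relative Pcolce2 (0.45 ± 0.09), the N-propeptidase Adamts2 (0.38 ± 0.08), the C-propeptidase Bmp1 (0.28 ± 0.07) and the crosslinking enzyme Loxl2 (0.50 ± 0.10). Pcolce was at 58.5, 63.4 and 63.0 CPM in female exercised hearts and 54.9, 56.0 and 58.4 CPM in female sedentary hearts, against 50.1, 42.0 and 44.5 CPM in male exercised hearts and 47.0, 42.8 and 37.8 CPM in male sedentary hearts, without overlap. Pcolce was the 1 gene of the 5 past the test over the 9 libraries with few atrial transcripts.

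Of 19 folding and modification genes, 13 lay above 0 and 1 was called, P3h3 of the prolyl hydroxylase family (0.35 ± 0.08). For the counts at an unadjusted p under 0.05 that follow, the share of all genes was 21.2%. Among 9 collagen receptors and uptake genes 7 lay above 0 with 0 called, the smallest p belonging to Mrc2, an endocytic collagen receptor (0.19 ± 0.07, unadjusted p 0.0166; 2 genes were under 0.05 unadjusted, and DESeq2 and voom called 0). Among 10 breakdown genes 8 lay above 0 with 0 called by edgeR (5 under 0.05 unadjusted, 3 called by DESeq2 and 1 by voom), the nearest being Timp2, an inhibitor of collagen-degrading metalloproteases (0.27 ± 0.08, adjusted p 0.0521), and the gelatinase Mmp2 (0.19 ± 0.05, adjusted p 0.0533). Of 13 TGF-beta signalling genes, Smad7, an inhibitor of the pathway, was called higher (0.41 ± 0.09) and Ltbp1, which stores the latent ligand, was called lower (-0.17 ± 0.05).

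Several collagen genes sit next to each other in the genome, and 3 pairs of type IV genes are arranged head to head. Col4a1 starts at position 11312826 of chromosome 8 on the minus strand and Col4a2 at position 11312805 on the plus strand, so that the genes overlap by 22 bases at their starts. The starts of Col4a3 and Col4a4 on chromosome 1 lie 72 bases apart, and those of Col4a5 and Col4a6 on the X chromosome lie 1309 bases apart. Col6a1 and Col6a2 lie on the same strand of chromosome 10, and Col3a1 and Col5a2 lie tail to tail on chromosome 1. For Col4a3 no promoter window was found. The window of Col4a4 covers the annotated start of Col4a3 and is not shown. Whether the layout of these windows bears on the levels that follow was not tested. The promoter windows of Col4a1, Col4a2, Col4a5 and Col4a6 are shown, from 250 bases before to 50 after the start in RefSeq's annotation of GRCm38.p6. Each is written 5′ to 3′ on the strand of its own gene, in lower case, with capitals marking a CCAAT box (CCAAT, or ATTGG on the other strand) or a GC box (GGGCGG, or CCGCCC on the other strand).
Col4a1, chr8:11312777-11313076, minus strand: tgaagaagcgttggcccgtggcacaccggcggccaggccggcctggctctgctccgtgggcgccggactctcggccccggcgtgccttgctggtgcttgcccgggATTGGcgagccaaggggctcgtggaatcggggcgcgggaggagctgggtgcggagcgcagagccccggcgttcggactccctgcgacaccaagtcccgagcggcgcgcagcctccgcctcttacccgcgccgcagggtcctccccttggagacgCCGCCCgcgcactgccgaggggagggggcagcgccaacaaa
Col4a2, chr8:11312555-11312854, plus strand: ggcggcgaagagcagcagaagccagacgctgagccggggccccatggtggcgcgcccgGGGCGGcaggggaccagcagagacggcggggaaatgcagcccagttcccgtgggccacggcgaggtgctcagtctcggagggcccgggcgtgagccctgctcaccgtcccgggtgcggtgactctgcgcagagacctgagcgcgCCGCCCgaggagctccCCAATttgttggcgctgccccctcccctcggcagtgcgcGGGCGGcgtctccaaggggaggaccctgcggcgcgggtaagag
Col4a5, chrX:141475169-141475468, plus strand: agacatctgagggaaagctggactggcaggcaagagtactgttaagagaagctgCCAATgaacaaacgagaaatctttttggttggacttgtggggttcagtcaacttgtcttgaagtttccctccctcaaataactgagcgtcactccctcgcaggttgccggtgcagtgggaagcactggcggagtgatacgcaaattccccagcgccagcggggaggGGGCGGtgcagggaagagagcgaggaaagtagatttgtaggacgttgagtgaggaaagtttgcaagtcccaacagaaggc
Col4a6, chrX:141474027-141474326, minus strand: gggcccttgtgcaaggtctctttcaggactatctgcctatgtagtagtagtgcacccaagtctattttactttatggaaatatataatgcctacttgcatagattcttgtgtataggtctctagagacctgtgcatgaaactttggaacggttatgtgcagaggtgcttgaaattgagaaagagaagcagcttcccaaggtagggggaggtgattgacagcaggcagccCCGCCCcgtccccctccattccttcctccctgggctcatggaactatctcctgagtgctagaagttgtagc

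The Col4a1 and Col4a2 windows share 78 bases and are rich in G and C (74.0% and 73.7%, against a median of 52.7% over all 32851 windows), while those of Col4a5 (52.7%) and Col4a6 (48.3%) are near or below that median. Windows were found for 35 of the 44 collagens, 38 windows in all. On either strand, GGGCGG occurred in 60.5% of the collagen windows and 35.7% of all windows, CCAAT in 34.2% and 37.4%, and TATAAA in 13.2% and 13.6%. A match describes these letters only and is not shown to be a binding site.

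The head-to-head pair Col4a1 and Col4a2 varied together from library to library. Over the 12 libraries the log2 CPM of the pair correlated with Pearson's r of 0.967 and Spearman's rho of 0.951 (permutation p 1e-05 for r, the smallest that 100000 permutations can give, and adjusted p 0.0001 for both over 10 relations). The r was 0.974 on deviations from the group means, 0.976 within females, 0.953 within males, and 0.93 without the 2 libraries farthest from the median of Col4a1. For comparison, the median r over all 561 pairs of tested collagens was 0.33 and the 90th percentile was 0.756. On deviations from the group means these were 0.188 and 0.642. Many of the 561 pairs include scarce collagens, whose counting noise is larger than that of Col4a1 and Col4a2.

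The other head-to-head pairs were looser. Col4a3 and Col4a4 had r of 0.786 (adjusted p 0.00722 by permutation) but rho of 0.35 (adjusted p 0.33). In the plot of neighbouring pairs 3 libraries were low for both genes, and r was 0.543 without the 2 libraries farthest from the median of Col4a3. It was 0.689 within females, 0.854 within males and 0.771 on deviations from the group means, and each sex held at least 1 of the 3 low libraries. Col4a5 and Col4a6 had r of 0.231 and rho of 0.07 (permutation p 0.464 and 0.833), and r was 0.34 without the 2 libraries farthest from the median of Col4a5. Col4a6 had 14 to 80 counts per library and Col4a3 had 68 to 125, against 7923 to 13389 for Col4a1. Scarce genes carry more counting noise, and its part in these correlations was not tested.

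For Col6a1 and Col6a2 the libraries fell apart by sex, so r is given within each: it was 0.714 within the 6 female libraries and 0.123 within the 6 male libraries. Col3a1 and Col5a2 had r of 0.786 and rho of 0.727 (adjusted p 0.00567 and 0.0141 by permutation). The permutations took no account of group, and both genes had a fitted sex difference above 0. Their r was 0.724 within females, 0.567 within males and 0.708 without the 2 libraries farthest from the median of Col3a1. On deviations from the group means it was 0.553, below the 90th percentile over collagen pairs (0.642).

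**Figure D5:**
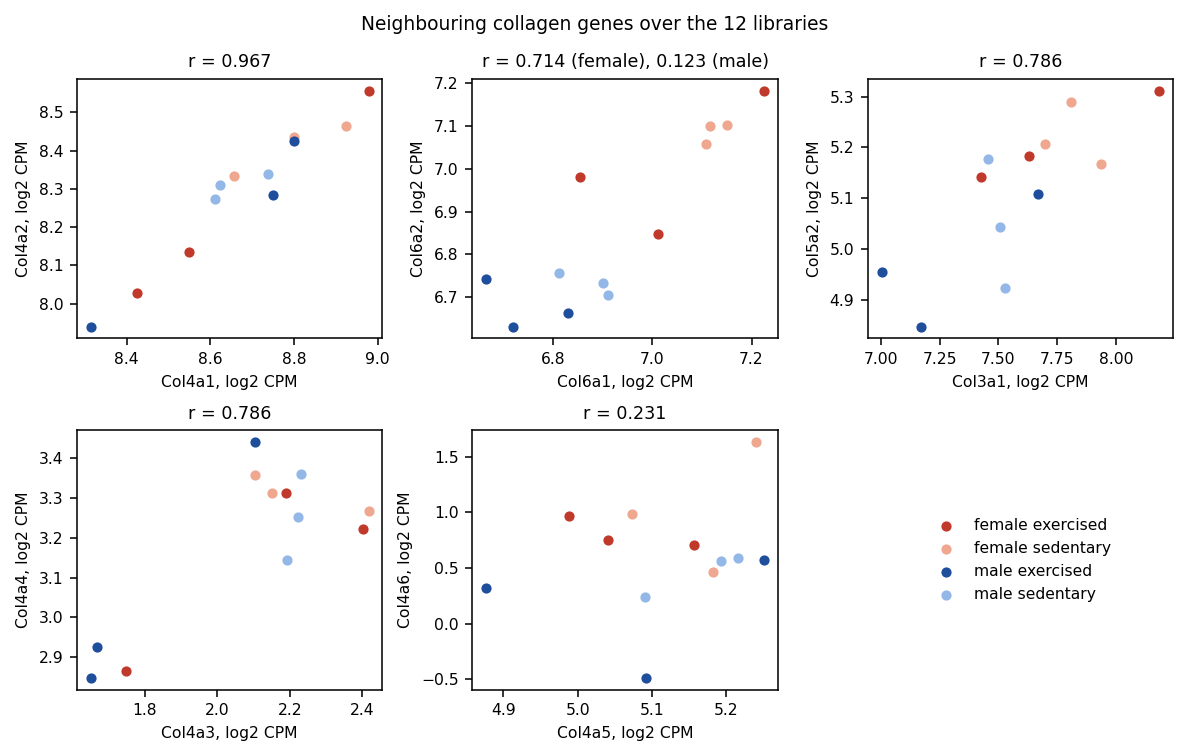
Log2 CPM of both genes of each of the 5 neighbouring collagen pairs, with 1 point per library coloured by group and Pearson's r over the 12 libraries in each title (within each sex for Col6a1 and Col6a2). Col4a1 and Col4a2 lie close to a line, Col4a5 and Col4a6 are scattered, and the Col6a1 and Col6a2 points separate by sex.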

How the data were processed

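The authors deposited 1 table of raw counts per gene for 12 libraries. Per the submitters' processing notes the tools were Trimmomatic 0.36, STAR 2.5.2b and featureCounts of Subread 1.5.2, with build GRCm38. Annotation release and strand setting are stated neither there nor in the labels. Identifiers were matched to GENCODE M21 on GRCm38 for symbols, exon lengths and coordinates (55141 of 55401 rows). Mitochondrial rows fell under the filter. From these counts, edgeR 4.0.16 (R 4.3.3) fitted 1 model of the 4 group means with TMM scaling, filterByExpr and robust quasi-likelihood dispersion on 8 residual degrees of freedom, with Benjamini-Hochberg adjustment over 16213 genes and a threshold of 0.05. SE values are the log2 difference divided by the square root of F. Replicates within groups differed by more than counting noise (chi-square per degree of freedom 9.33 to 34.7). The script was tested on simulated data. The 3 libraries per group limit precision, and for scarce collagens counting noise does too.

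The collagens, the gene lists and the tests were chosen with earlier results of these data known. Values per library are given for collagens past the test in any contrast, the 5 of smallest p in each, and a panel of 11 abundant or well-known collagens; others are given by range. Alternatives tried were other scalings (RLE, upper quartile), no filter and a stricter one (CPM above 1 in 3 libraries), DESeq2 1.42.0, voom of limma 3.58.1 with sample weights, a fit of only the groups compared and leaving out each library. Leaving out the 3 libraries with Myl7 above 10 CPM, and an unfiltered fit with edgeR's bias-adjusted test, were chosen after seeing the data. Pair correlations used scipy 1.17.1 with 100000 permutations, two-sided.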

Additional observations from a re-analysis of the deposited data

How the results depend on the processing

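No paired analysis was possible because the labels give no replicate number that groups share, and the numbers used here only follow accession order. RLE and upper quartile scaling, the stricter filter and voom moved no count of called collagens by over 1.5 times. Without a filter on low counts the collagens called were 1 for exercise in males and 1 for exercise averaged over sexes (Col5a3 in both). They were 8 for sex in exercised hearts, 8 for sex in sedentary hearts and 13 for sex averaged over conditions. Of all 33281 genes that fit called 327, 399, 531, 1317 and 1683, in the same order. That fit called 357 genes for exercise in females where the main one called 0. The bias-adjusted test without a filter called 0 there, and it called 2 collagens among 43 genes for sex in exercised hearts. DESeq2, over the same 33281 genes, called 4 collagens among 167 genes for sex in exercised hearts and 13 among 1378 averaged. Fitting only the groups compared called 0 collagens in exercised hearts, where it called 15 of 15604 genes. The 9 libraries with few atrial transcripts called 0 in exercised hearts, 0 in sedentary hearts and 1 averaged, and gave the other sign for exercise in females of Col1a1 (0.0548), Col5a1 (0.008), Col5a2 (0.0646) and Col6a1 (0.008). The cause was not tested, beyond fewer samples in that fit.

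Leaving out 1 library at a time, the collagen medians ranged from -0.23 to -0.0576 for exercise in females, -0.18 to -0.0748 for exercise in males, -0.10 to 0.10 for the interaction and 0.17 to 0.39 for sex in exercised hearts. The counts of collagens called ranged from 1 to 2 for sex in exercised hearts and from 1 to 5 in sedentary hearts. Over all genes these counts ranged from 17 to 55 and from 68 to 462. For sex averaged over conditions the count was 6 to 11 collagens, and 421 to 837 over all genes. For exercise in females the log2 difference ranged from -0.21 to 0.0352 for Col1a1, -0.29 to 0.11 for Col3a1, -0.11 to 0.0417 for Col5a1, -0.0622 to 0.0243 for Col5a2 and -0.0289 to 0.11 for Col1a2. For exercise in males it ranged from -0.11 to 0.12 for Col4a1 and -0.19 to 0.0476 for Col4a2. For sex averaged over conditions it ranged from -0.0036 to 0.14 for Col4a1 and -0.0199 to 0.12 for Col4a2. Of 1294 values recomputed for single collagens, 1217 kept their direction and their side of the threshold, 36 fell out of it, 22 came past it and 19 changed sign.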

Other observations

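Ratios between chains, per kilobase of exon, gave a view that library scaling does not touch. Col15a1 over Col18a1 was 8.32 to 10.8 in female libraries and 10.8 to 13.1 in male libraries, and Col8a1 over Col8a2 was 7.20 to 18.2 in female libraries and 16 to 93.2 in male libraries, where the 93.2 was male exercised library 3 with 3 counts of Col8a2 and the other 5 lay between 16 and 32.2. In both pairs the less abundant partner, Col18a1 or Col8a2, was the one with the larger sex difference. Col1a1 over Col3a1 was 1.02 in male exercised library 2 and 0.531 to 0.752 in the other 11 libraries. The value above 1 rests on the division by exon length, since in CPM Col1a1 (87.8) lay below Col3a1 (128) in that library. Of the filtered collagens, Col6a5, which like Col6a6 is related to Col6a3, had 9 counts over the 6 female libraries and 29 over the 6 male libraries, and Col17a1 had 16 and 4. These counts are too few for the test used here, and they were picked after their values were seen.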
